A study of Mustela putorius furo with 8 samples.

Results

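Pancreatic ductal epithelial (PDE) cultures of CFTR knockout ferrets (CF) were compared with those wild-type (WT) cells that, like the CF cells, held almost no SOX2 transcript. All cells of the 30 CF clusters were set against the WT cells of clusters with less than 10 SOX2 counts per 1000000 unique molecular identifiers (CPM over the summed UMIs of a cluster). The members were 16824 of 32945 retained cells. The CF libraries gave 4499, 2750, 1607 and 2489 cells at day 2, 5, 7 and 9, and the SOX2-low WT clusters gave 892, 1801, 1276 and 1510. The WT clusters were chosen by their measured SOX2 level and are not groups of the study, so the SOX2 difference is a description.

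The groups were CFTR KO/KO and WT, and both were grown in the same way. Duct cells of newborn ferrets had gone through 10 passages and were then kept at an air-liquid interface for 2, 5, 7 or 9 days. Each genotype had 1 10x Genomics library per day. The study pooled several donors of each genotype, whose cultures it describes as differing in PDX1 expression. No value therefore has a replicate error, no test was run, and donor, culture and genotype cannot be told apart. The 95% intervals given with ratios are exact intervals for 2 UMI sums and cover counting error only.

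SOX2 is an HMG-box transcription factor that marks the foregut epithelium of the oesophagus, airway and forestomach, where it is set against the programme of the more distal gut. PDX1 and PAX6 belong to the pancreatic and endocrine programme, and the pancreatic duct does not normally depend on SOX2. Duct cells line the channels that carry enzymes out of the pancreas, and CFTR is their apical chloride and bicarbonate channel.

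SOX2 divided the WT clusters with a wide gap. Of 41 WT clusters, 12 were SOX2-low, and the highest of these, clusters 38 and 27, stood at 4.87 and 3.97 CPM. The lowest SOX2-high clusters, 36 and 40, stood at 50.6 and 71 CPM, and the highest CF cluster at 1.08 CPM. The deposited class was ductal for 9 SOX2-low clusters, proliferating ductal for 1 and centroacinar for 2. By day, SOX2 was at 3.88, 0.948, 1.89 and 2.17 CPM in the SOX2-low cells and at no more than 0.0864 CPM in CF cells, so the SOX2-low cells still held 44 to 57 SOX2 UMIs in each library against 1 to 3 in CF.

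The SOX2-low cells of each day came largely from different clusters. WT cluster 19 held 556 of 892 such cells at day 2, clusters 0 and 11 held 571 and 541 of 1801 at day 5, cluster 0 held 524 of 1276 at day 7, and cluster 8 held 801 of 1510 at day 9. The sums of both sides were epithelial, which does not show that every cell was. KRT19 was between 4011 and 6667 CPM, KRT7 between 2133 and 3772 CPM, and CDH1 between 276 and 524 CPM in all 8 sums. The class named ductal held 95.2%, 87.2%, 88.9% and 86.5% of SOX2-low cells but 57.6%, 19.3%, 11% and 11.4% of CF cells, most of the later CF cells being named centroacinar. INS and GCG were at 0 on both sides, and the 12 endocrine hormone and granule genes in the matrices summed to at most 0.806 CPM.

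**Figure D1:**
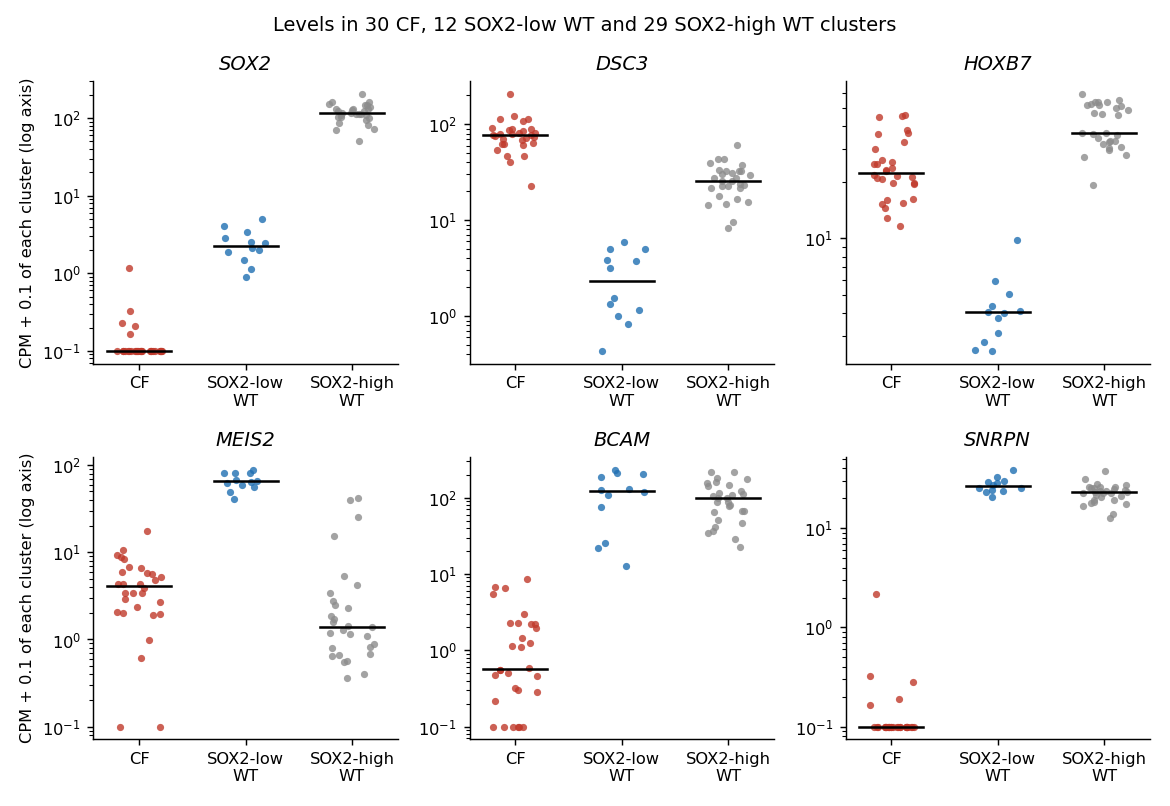
Each point is the level of a gene in 1 cluster, as CPM + 0.1 on a log axis, for all 30 CF, 12 SOX2-low WT and 29 SOX2-high WT clusters, and bars are medians over clusters. SOX2 chose the groups; in clusters of at least 100 cells DSC3 and HOXB7 reach at most 5.89 and 5.84 CPM in SOX2-low WT, MEIS2 is at 41.1 CPM or more there, and BCAM and SNRPN do not exceed 8.39 and 2.07 CPM in CF.

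CFTR itself, the targeted gene, was still counted in the libraries labelled CFKO knockout, called CF here. The study's methods describe CFTR KO/KO ferrets as lacking CFTR mRNA. Counts per gene do not show which exons the reads came from, and the reason was not tested. It was at 2.5, 8.69, 11.1 and 11.4 CPM in CF and at 5.31, 4.94, 9.43 and 25.9 CPM in SOX2-low WT cells at day 2, 5, 7 and 9. CF was lower than SOX2-low cells at day 2 and 9 and higher at day 5. Against all WT cells of the same day CFTR was lower in CF by 1.11, 0.89, 0.48 and 1.30 on the log2 scale, and against SOX2-high cells by 1.15, 1.53, 0.74 and 1.37. Any 2 libraries shared 1 to 14 cell barcodes. At day 7, 411 of 1607 CF cells had fewer than 3000 UMIs against 5 of 1276 SOX2-low WT cells, and no count of genes named below moved by over 1.5 times when cells under 3000 UMIs were left out.

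Fewer genes lay at least 2-fold apart between CF and SOX2-low WT cells than between CF and SOX2-high WT cells at each day, although SOX2-low cells were taken for a feature they share with CF. Among 9354 genes with at least 5 CPM on average over the 8 sums, 204, 383, 532 and 202 were at least 2-fold higher in CF than in SOX2-low WT cells at day 2, 5, 7 and 9, or 2.18%, 4.09%, 5.69% and 2.16%. At least 2-fold lower were 147, 244, 215 and 122, or 1.57%, 2.61%, 2.30% and 1.30%. Against SOX2-high WT cells of the same libraries, 557 (5.95%), 535 (5.72%), 603 (6.45%) and 590 (6.31%) genes were higher and 295 (3.15%), 435 (4.65%), 221 (2.36%) and 294 (3.14%) were lower. Both comparisons share the CF libraries. Both also use the same 9354 genes, chosen by the CF and SOX2-low sums alone. Genes expressed mainly in SOX2-high cells, SOX2 itself among them, were thus left out. The SOX2-high counts were not repeated under the other settings. Over all tested genes the order was less uniform, since the median absolute log2 difference was 0.198, 0.246, 0.313 and 0.205 from SOX2-low cells, 0.281, 0.295, 0.299 and 0.288 from SOX2-high cells and 0.259, 0.208, 0.274 and 0.234 from all WT cells. CF thus lay nearest to SOX2-low cells at day 2 and 9, and nearest to the sum of all WT cells at day 5 and 7. Fold here is the ratio of CPM + 1, which understates the difference of genes near 1 CPM.

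The day 7 and day 9 counts depended on how cells were scaled or chosen. At day 7 the median gene was 0.15 higher in CF on the log2 scale, a shift that TMM scaling moved to -0.04, and TMM gave 371 higher and 325 lower genes in place of 532 and 215. Size factors of DESeq2 gave 384 and 312 at day 7, and totals without mitochondrial and ribosomal protein genes gave 489 and 329. At day 9, leaving out WT cluster 8, which held 801 of 1510 SOX2-low cells, gave 543 higher and 280 lower genes. A SOX2 limit of 2 CPM, which kept 1.94% of WT cells at day 2 in place of 14.3%, gave 374 genes each way at that day.

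**Figure D2:**
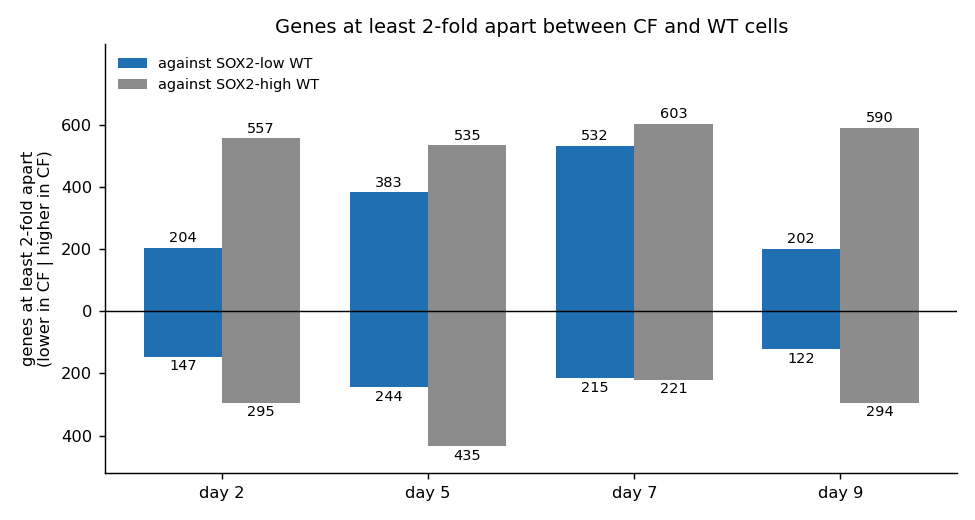
Bars count genes, of 9354, at least 2-fold higher (up) or lower (down) in CF than in SOX2-low (blue) or SOX2-high WT cells (grey) at each day. The fewest differences are with SOX2-low cells at day 9, 202 higher and 122 lower, and the 2 references come closest at day 7.

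Across the same 9354 genes, log2(CPM + 1) of 26 of 29 CF clusters correlated best with a SOX2-low WT cluster. SOX2-low clusters made up 12 of 39 WT clusters of at least 50 cells. SOX2-low and SOX2-high clusters did not stand equally here, since the genes were chosen by the CF and SOX2-low sums alone. Genes expressed mainly in SOX2-high cells could not lower the SOX2-low match. The margins were small: r was higher for the SOX2-low match by at most 0.06, and by at most 0.01 after rounding in 8 of the 26. The best SOX2-low match had a Pearson r of 0.796 to 0.963 and the best SOX2-high match 0.819 to 0.949, and genes are not independent replicates. WT clusters 8 and 30 were each the nearest to 5 CF clusters and cluster 17 to 4. The exceptions were CF cluster 11, nearest to SOX2-high cluster 2 (0.938 against 0.928), and CF clusters 23 and 27, nearest to SOX2-high cluster 20. Clusters 23 and 27 had median UMI counts of 3246 and 4718, low beside the 19941 to 23427 of the CF libraries of day 7 and 9. CF clusters 13 and 21 were shallower still, with medians of 1018 and 1043.5 UMIs, and were nearest to SOX2-low clusters 8 and 17.

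At all 4 days 87 genes (0.930%) lay at least 2-fold higher in CF, and 41 genes (0.438%) were at least 2-fold lower. Against SOX2-high cells these numbers were 220 (2.35%) and 78 (0.834%). By cluster, 31 genes (0.331%) were higher in each of the 29 CF clusters of at least 100 cells than in any of the 11 such SOX2-low clusters, and 17 genes (0.182%) were lower. The place of the SOX2-high cells differed from gene to gene, and their level is given for most genes named next.

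A set of 6 genes, counted after their values were seen, was present in CF and next to absent in both kinds of WT cell. LOC123394022 was at 75.3, 76.2, 78.2 and 78.6 CPM in CF, with 0 UMIs in SOX2-low cells of any day and at most 0.147 CPM in SOX2-high cells. Against the limit that 3 counts in each SOX2-low sum would give, it reached at least 369-fold in CF on day 2 and at least 1178-fold on day 5. LOC123394028 (57.6 to 85.2 CPM), LOC123394027 (26.1 to 39.6 CPM) and the non-coding LOC101691637 (35 to 49.2 CPM) also had 0 UMIs in SOX2-low cells. LOC123386996 went from 166 CPM at day 2 to 726 CPM at day 9 in CF, and the SOX2-low cells held 5 UMIs of it over the 4 days.

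LOC101672794 was at 173, 183, 151 and 141 CPM in CF, with a ratio to SOX2-low cells of 848 (290 to 4113) at day 2 and 1210 (414 to 5869) at day 9. Its lowest CF cluster stood at 43.1 CPM and its highest SOX2-low cluster at 0.773 CPM. In the RefSeq annotation of ASM1176430v1.1, LOC123394022, LOC123386996, LOC123394027 and LOC123394028 stand near each other, at places 16127, 16137, 16141 and 16142 of its list, and 5 of the 6 are protein coding. PDX1, under the level set for the counts above, had the same pattern, and since the pooled donors were already known to differ in it, its values are a description: 345, 336, 175 and 222 UMIs in CF against 0, 0, 1 and 0 in SOX2-low cells and 0 in SOX2-high cells. NKX6-1, its partner in the beta cell lineage, had 1 UMI in CF and 0 elsewhere.

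DSC3, a desmosomal cadherin of stratified epithelium, was at 75, 82.6, 91.4 and 55.5 CPM in CF and at 1.84, 2.03, 2.38 and 2.56 CPM in SOX2-low cells, a ratio of 40.8 (28 to 62) at day 2 and 21.7 (17 to 28.1) at day 9. SOX2-high cells held 24.9 to 34.8 CPM. No SOX2-low cluster of at least 100 cells exceeded 5.89 CPM and no such CF cluster fell under 22.4 CPM.

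LYPD2, an LY6-family surface protein, was at 85.8, 269, 181 and 248 CPM in CF against 1.63, 8.1, 20 and 51.9 CPM, and reached 1091 CPM in SOX2-high cells at day 9. LY6D, of the same family, was higher by 3.67, 2.87, 2.63 and 2.00 on the log2 scale, with at most 4.09 CPM in SOX2-high cells. The uroplakin UPK1A was at 32.9 to 275 CPM in CF and 5.45 to 37.5 CPM in SOX2-low cells, with 21.3, 176, 140 and 172 CPM in SOX2-high cells, but 9 of 29 CF clusters exceeded the highest SOX2-low cluster and 4 fell under the lowest. These differences thus did not have the same reach: that of DSC3 held in every cluster and that of UPK1A in some.

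ECRG4, a secreted peptide precursor, was at 1551, 2622, 2302 and 2656 CPM in CF and 110, 63.2, 130 and 262 CPM in SOX2-low cells. The ratio was 14.1 (13.4 to 14.8), 41.5 (40 to 43), 17.8 (17.2 to 18.4) and 10.1 (9.87 to 10.4). SOX2-high cells held at most 10.3 CPM, so here the SOX2-low cells stood between the others.

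TFPI, the inhibitor of the tissue factor pathway of coagulation, was at 26.1, 35.3, 50.5 and 56.3 CPM in CF and 1.84 to 3.37 CPM in SOX2-low cells, and SOX2-high cells were similarly low at 1.58 to 6.37 CPM. Within the ductal class alone it was 0.90 and 0.80 higher on the log2 scale at day 7 and 9. FBN1, the microfibril protein fibrillin, was at 20.9 to 37.4 CPM in CF, 1.9 to 2.87 CPM in SOX2-low and 8.01 to 13.2 CPM in SOX2-high cells, and each CF cluster of at least 100 cells lay above every SOX2-low cluster. CST6, a cysteine protease inhibitor, was 5.73 (5.08 to 6.5), 7.64 (7.03 to 8.32), 3.85 (3.51 to 4.22) and 6.17 (5.56 to 6.87) times higher in CF than in SOX2-low cells, and SOX2-high cells held 5.67 to 22 CPM against 77 to 104 CPM in CF.

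SLCO3A1, an organic anion transporter, and S100A14, a calcium-binding protein of epithelia, were near their SOX2-high level in CF. SLCO3A1 was at 27.7 to 35.3 CPM in CF, 2.25 to 3.84 CPM in SOX2-low and 17.4 to 27.4 CPM in SOX2-high cells. S100A14 was at 295 to 346, 48.5 to 60.9 and 188 to 274 CPM in the same order. The other genes named by the same rule, MGAT4A, MAL, GUCY1A2, HTATIP2 and HTRA1, had mean differences of 1.60 to 1.87 on the log2 scale. Within the ductal class alone, GUCY1A2 was instead at -1.28 and -0.50 and HTRA1 at -0.17 and -0.61 at day 7 and 9.

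**Figure D3:**
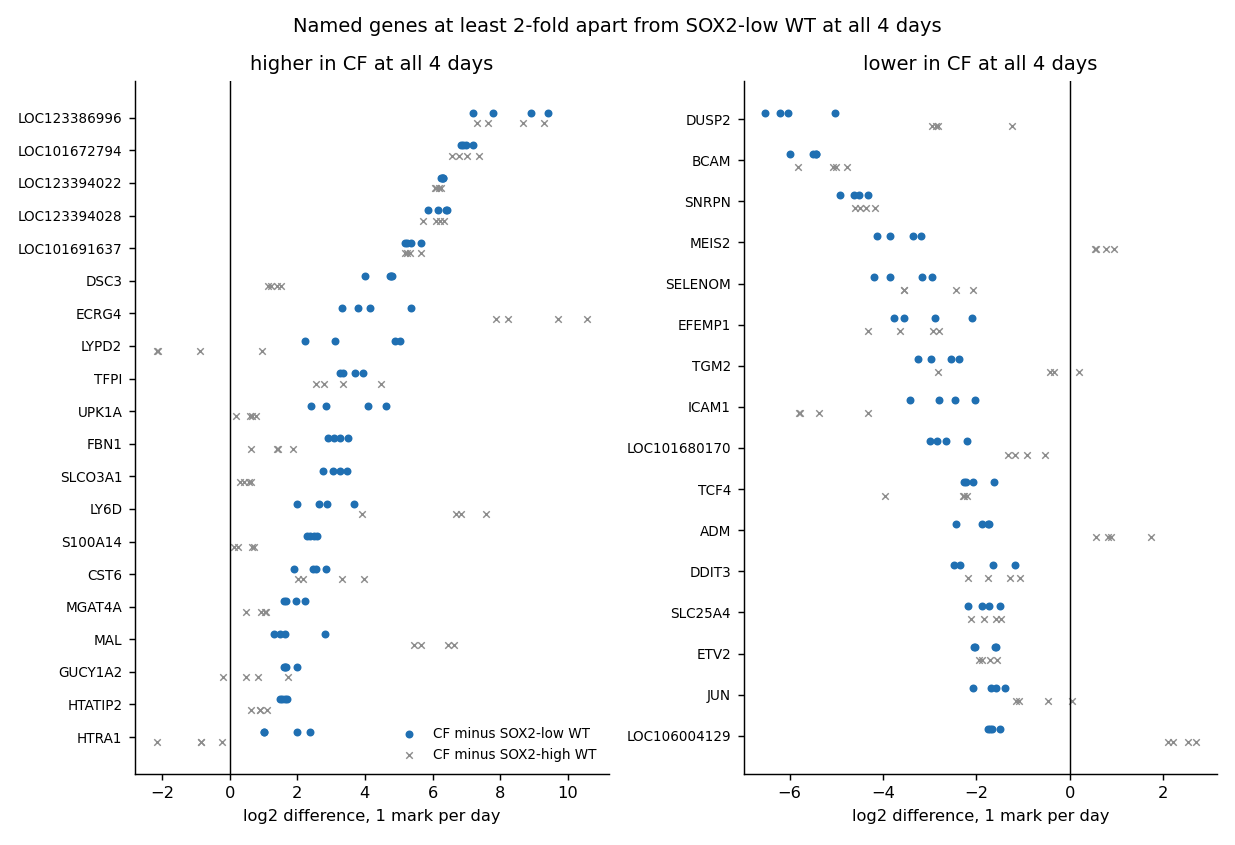
Each mark is the log2 difference of CPM + 1 at 1 day, CF minus SOX2-low WT (blue circles) or CF minus SOX2-high WT (grey crosses), for the named genes at least 2-fold apart from SOX2-low WT cells at all 4 days. Both sets of marks lie on the same side of 0 for the 5 LOC genes higher in CF, BCAM and SNRPN, and on opposite sides for MEIS2 and ADM.

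Some of the genes lower in CF were low against both kinds of WT cell. BCAM, a laminin receptor of the immunoglobulin family, was at 0.508, 2.01, 2.59 and 1.78 CPM in CF, at 95.7, 129, 155 and 125 CPM in SOX2-low cells and at 84.4, 95.4, 121 and 75.2 CPM in SOX2-high cells. It was 188 (143 to 253) times lower in CF than in SOX2-low cells at day 2 and 70.3 (57 to 87.8) times lower at day 9. The highest CF cluster held 8.39 CPM and the lowest SOX2-low cluster 12.8 CPM.

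SNRPN and SNURF, a pair of imprinted genes transcribed from the paternal chromosome in mammals, were nearly absent from CF. SNRPN had 11, 0, 8 and 8 UMIs in CF and 387, 1348, 775 and 577 in SOX2-low cells, or 22.3 to 29.1 CPM, with 20 to 24.3 CPM in SOX2-high cells. SNURF was at no more than 0.0684 CPM in CF and at 11.4, 13.1, 15.2 and 26.3 CPM in SOX2-low cells. Their positions in that annotation, whose table gave no sequence names, overlap (10801773 to 10820231 and 10819382 to 10835798), so their reads may not be separate evidence.

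CLEC12A, a C-type lectin, and the non-coding LOC101684540 had 0 UMIs in all 4 CF libraries. CLEC12A was at 12.1, 19.9, 21 and 22.3 CPM in SOX2-low and 7.34 to 11.6 CPM in SOX2-high cells, and thus at least 243-fold lower in CF on day 7 and at least 473-fold on day 5. SELENOM, a selenoprotein of the endoplasmic reticulum, was at 4.24, 5.86, 13.3 and 11.1 CPM in CF and 94.8 to 110 CPM in SOX2-low cells, with 49.7 to 79.5 CPM in SOX2-high cells. EFEMP1, a fibulin of the matrix, was 16.3 (14 to 19.1) times lower at day 2 and 5.09 (4.33 to 6) times at day 9, with 35.1 to 64.5 CPM in SOX2-high cells. ICAM1, an adhesion receptor for leukocytes, was lower in CF than in SOX2-low cells (30.3, 23.1, 42.1 and 84.1 CPM) and those were lower again than SOX2-high cells (113 to 443 CPM), with 4.68 to 6.96 CPM in CF.

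Others were highest in SOX2-low cells. MEIS2, a homeodomain factor, was at 3.82, 3.88, 5.82 and 4.84 CPM in CF, at 68.4, 83.6, 68.3 and 51.9 CPM in SOX2-low cells and at 1.5 to 3 CPM in SOX2-high cells. CF cells thus had the SOX2-high level of MEIS2 within a few CPM, and none of the 29 CF clusters, which reached 17.4 CPM, came up to the lowest SOX2-low cluster at 41.1 CPM. DUSP2, a nuclear phosphatase that switches off MAP kinases, was at 0.0586, 0.112, 0.432 and 0.36 CPM in CF and went from 33.4 CPM at day 2 to 123 CPM at day 9 in SOX2-low cells, with 1.5 to 10 CPM in SOX2-high cells. It was 569 (260 to 1558) times lower in CF at day 2 and 343 (217 to 579) times at day 9.

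ADM, the vasodilator peptide adrenomedullin, was lower in CF than in SOX2-low cells by 1.72 to 2.43 on the log2 scale and higher than in SOX2-high cells, at 7.06 to 19.4, 25.5 to 67.5 and 3.54 to 9.96 CPM. TGM2, a transglutaminase that crosslinks matrix, was at 3.54 to 13.8 CPM in CF and 42.1 to 77.5 CPM in SOX2-low cells. SOX2-high cells held 31.4, 11.7, 18.9 and 8.23 CPM of TGM2, so at day 2 they were nearer to SOX2-low cells than to CF. Among other lower genes of the rule, TCF4, DDIT3, SLC25A4, ETV2 and JUN had mean differences of -2.05 to -1.68, and TCF4, DDIT3, SLC25A4 and ETV2 were lower in CF than in SOX2-high cells as well.

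Transcription factors of foregut and epithelial patterning were divided. Of 26 tested, TBX3, IRX5 and DLX5 were at least 2-fold higher in CF at all 4 days, MEIS2 and GATA2 were lower, where 0.930% and 0.438% of all genes were, and the medians of the list were -0.11, 0.20, 0.09 and 0.06 at day 2, 5, 7 and 9. With 5 CPM added in place of 1, TBX3 was higher by 0.90 at day 2 and 9 and so under 2-fold. DLX5, a homeobox factor of craniofacial tissue, was at 8.79 to 10.3 CPM in CF, 0.34 to 1.62 CPM in SOX2-low and 1.07 to 1.89 CPM in SOX2-high cells. HOXB7, the sole tested HOX gene of 39, was at 18.9, 27.9, 30.1 and 34.2 CPM in CF, at 3.18 to 3.95 CPM in SOX2-low and at 33.6 to 59.8 CPM in SOX2-high cells. All 29 CF clusters of at least 100 cells lay above every such SOX2-low cluster for HOXB7, and its CF level lay nearer to that of the SOX2-high cells.

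Of the pancreatic and endocrine factors 10 were tested and none was 2-fold apart at all 4 days, where 0.930% and 0.438% of all genes were, so the count says nothing of these genes in particular. PAX6, an eye and islet factor, was at 84, 68.5, 57.1 and 47.5 CPM in CF and 117, 145, 115 and 81.2 CPM in SOX2-low cells, and 20 of 29 CF clusters lay under the lowest SOX2-low cluster. SOX2-high cells held 2.79 to 6.09 CPM. HES1, a Notch target, was lower in CF than in SOX2-low cells by 1.81, 0.50, 0.91 and 1.75 on the log2 scale. CF held 475, 856, 795 and 535 CPM of HES1 and SOX2-high cells 849, 323, 599 and 762 CPM. HES1 was thus higher in CF than in SOX2-high cells at day 5 and 7. All WT cells held 953, 731, 909 and 1078 CPM, less than CF at day 5 alone. The Notch list of 11 tested genes had medians of -0.08, 0.27, 0.38 and 0.26. SOX9 of CF, a duct and progenitor factor, differed from SOX2-low cells by -0.18, 1.17, 0.27 and 0.46. The SOX9 value of day 5 became -0.30 when each cluster had equal weight.

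The 5 tested collagens had median differences of 0.48, 0.78, 3.88 and 2.52, set beside 0.15 for all genes at day 7, and 1, 2, 5 and 4 of them were at least 2-fold higher at day 2, 5, 7 and 9, where 2.18%, 4.09%, 5.69% and 2.16% of all genes were. COL5A2, a fibrillar collagen chain, was at 7.43, 9.21, 47.4 and 48.8 CPM in CF and at most 1.34 CPM in SOX2-low cells, with 11.2, 82.2, 33.7 and 35.6 CPM in SOX2-high cells. COL4A1, a basement membrane collagen, went from 0.772 CPM at day 2 to 29.2 CPM at day 9 in CF and stayed at or under 0.62 CPM in SOX2-low cells, with 1.71 to 19.7 CPM in SOX2-high cells. SPP1, the secreted phosphoprotein osteopontin, was at 2.98, 41.7, 1082 and 1940 CPM in CF, at 8.72, 14.7, 19.8 and 199 CPM in SOX2-low cells and at 1.48, 249, 117 and 157 CPM in SOX2-high cells.

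Of 14 tested matricellular and matrix genes, 11 were at least 2-fold higher at day 7 and 7 at day 9, when 5.69% and 2.16% of all genes were, among them the laminin chains LAMB1, LAMA3 and LAMA5. In the ductal class alone the medians of these 14 genes were 0.56 and -0.28 at day 7 and 9, in place of 1.34 and 0.89. Of 11 contractile and mesenchymal genes, 6 and 5 were at least 2-fold higher at day 7 and 9, with medians of 1.32 and 0.90, and in the ductal class alone the medians were -1.09 and -1.84. FN1, fibronectin, was at 3.23, 5.99, 404 and 431 CPM in CF, at 0.0681, 10.7, 4.26 and 16.5 CPM in SOX2-low cells and at 0.12, 477, 140 and 216 CPM in SOX2-high cells. TAGLN, an actin-binding protein of smooth muscle, was at 1.4, 27.8, 500 and 591 CPM against 0.477, 3.54, 17.4 and 209 CPM, so its level also went up with days in SOX2-low cells, and SOX2-high cells held 0.0901, 444, 154 and 294 CPM. From day 5 on, SOX2-high cells thus held more FN1 and TAGLN than SOX2-low cells of the same day, and at day 5 more than CF.

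The spread over CF clusters was unequal. CF cluster 11 held 62.6% of the CF UMIs of FN1, 62.8% of TAGLN, 57.1% of COL4A1 and 43.9% of SPP1, against 3.92% of all CF UMIs. COL5A2 and LAMB1 were instead above the highest SOX2-low cluster in 18 and 14 of 29 CF clusters. Cluster 11 had 401 cells, 128 of them at day 7 and 266 at day 9, with 2244 CPM of FN1, 3037 CPM of TAGLN and 5968 CPM of SPP1. Without it, FN1 in CF was 0.352 CPM at day 2, where the cluster had 5 cells, 115 CPM at day 7 and 219 CPM at day 9. COL4A1 was then higher at day 7 and 9 by 2.70 and 3.47 in place of 4.27 and 4.22. ANKRD1, a YAP and TGF-beta target, differed at day 9 by -0.01. The medians of the collagens were then 2.69 and 1.87, and 5 and 4 collagens stayed at least 2-fold higher. Of CF cells, cluster 3 (673 cells) and the shallow clusters 23 and 27 held 550, 3067 and 1524 CPM of FN1.

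Markers of fibroblasts were highest in CF at the same days. The 11 fibroblast and stellate markers were all counted in CF, with sums of 9.34, 1.57, 34.8 and 23.1 CPM at day 2, 5, 7 and 9, and 6 of the 11 were counted in SOX2-low cells, with sums of 0.711 to 1.9 CPM. PDGFRB, LUM, COL6A3, COL3A1 and DES were at 0 in SOX2-low cells. At day 2, 5 CF cells of cluster 11 summed to 9802 CPM of these markers, and without that cluster the CF sums were 0.773, 1.57, 4.35 and 9.56 CPM. Cluster 11 as a whole held 3483 CPM of KRT19 and 349 CPM of CDH1. The part of fibroblast markers in the matrix results was not tested.

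The class names also moved with these results. Within the ductal class alone, the collagen medians were 0.21, -0.28, -0.06 and -0.07, those of the contractile genes -0.53, -0.74, -1.09 and -1.84, and TAGLN was lower in CF by 1.87 and 4.42 at day 7 and 9. CF ductal cells were then few, 176 at day 7 and 284 at day 9, and cluster 19 made up 88 and 233 of them. CF clusters 3, 11, 23 and 27 were all named centroacinar and so were left out. WT cluster 8, with 369 CPM of TAGLN, 342 CPM of SPP1 and 202 CPM of VIM, was named ductal and stayed. It held 801 of the 1306 ductal SOX2-low cells at day 9. The deposited names thus took clusters high in these genes from CF and kept one in WT, so these values do not compare like cells.

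Cell cycle genes were lower in CF at day 5 and 7. Of 22 tested G2/M genes, 1, 21, 20 and 0 were at least 2-fold lower at day 2, 5, 7 and 9, where 1.57%, 2.61%, 2.30% and 1.30% of all genes were, with medians of -0.67, -2.73, -2.39 and -0.04. Of 15 S phase genes, 0, 13, 10 and 0 were lower, with medians of -0.26, -1.47, -1.38 and 0.00. CENPF, a kinetochore protein of mitosis, was at 34.1, 17.5, 2.97 and 1.2 CPM in CF and 55.7, 156, 54.4 and 1.2 CPM in SOX2-low cells, while SOX2-high cells were at 71.5, 0.511, 3.22 and 0.153 CPM. At day 9 both sides were equally low.

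WT cluster 27 (298 cells, proliferating ductal), cluster 31 (251) and cluster 11 (756) held high levels of these genes, with summed G2/M levels of 5950, 1987 and 201.1 CPM. Of their cells 199, 160 and 541 were of day 5. CF clusters 24, 10 and 9, with 4173, 494.4 and 449.3 CPM, were kept. Leaving out these 3 WT clusters, chosen by their G2/M level after seeing it and from the WT side alone, fixes a shift toward CF and is given as a value only. It turned the G2/M medians to 1.66, 1.32, 0.55 and 0.11 and those of S phase to 0.69, 0.45, 0.17 and 0.23. Without the proliferating classes on both sides, 8, 18, 17 and 0 of the 22 G2/M genes were lower. With all cells kept, 1.57%, 2.61%, 2.30% and 1.30% of all genes were lower, and the shares without these classes are not given here. The genes lower in CF numbered 124 at day 5 and 132 at day 7 without the same 3 WT clusters, in place of 244 and 215.

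**Figure D4:**
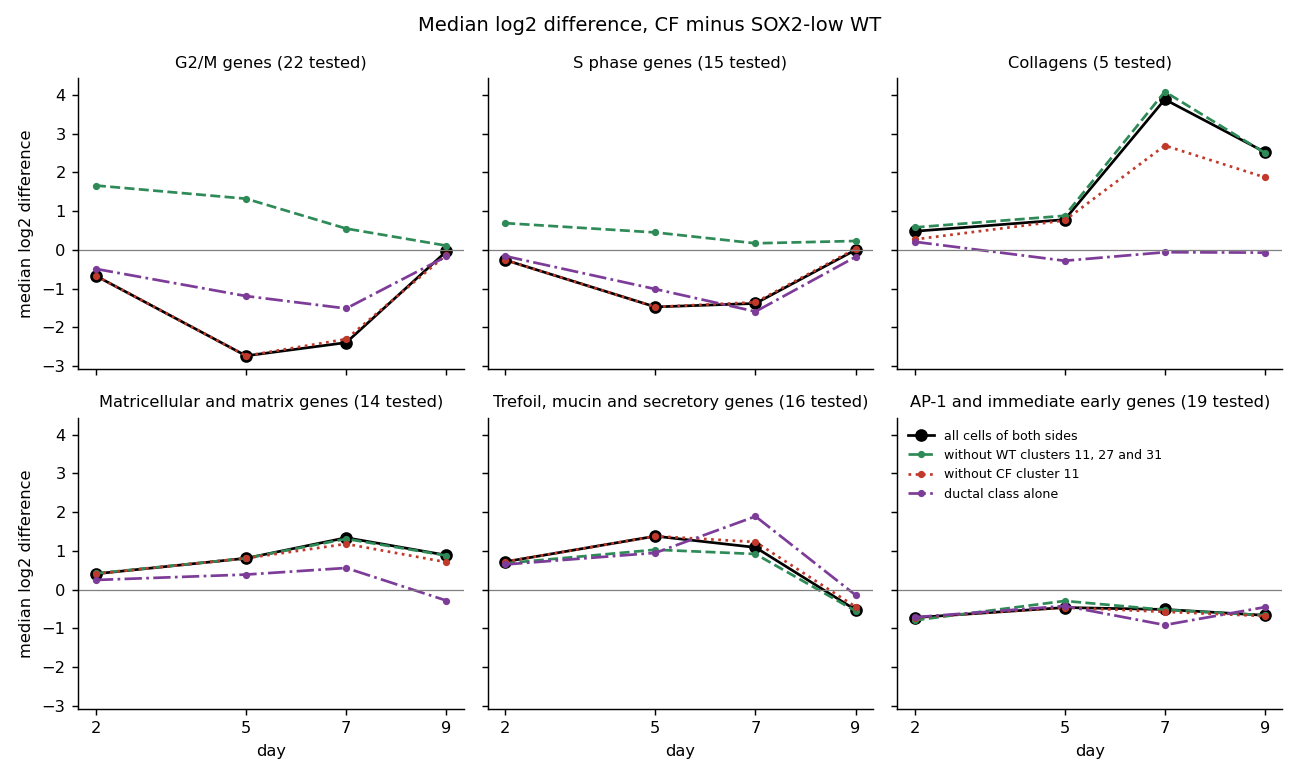
Lines give the median log2 difference over the tested genes of 6 lists, CF minus SOX2-low WT, at day 2, 5, 7 and 9, for all cells and for 3 choices of cells. The G2/M and S phase lines lie under 0 at day 5 and 7 except without WT clusters 11, 27 and 31, and the collagen line lies above 3 at day 7 except in the ductal class alone and without CF cluster 11.

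Mucins and secretory products were higher in CF than in SOX2-low cells at day 2, 5 and 7 more often than lower, and the reverse held at day 9. Of 16 tested, 5, 9, 9 and 3 were at least 2-fold higher and 2, 1, 1 and 7 lower, with medians of 0.72, 1.38, 1.09 and -0.52. Of all genes 2.18%, 4.09%, 5.69% and 2.16% were higher and 1.57%, 2.61%, 2.30% and 1.30% lower. In the ductal class alone 5 were higher and 5 lower at day 9, with a median of -0.14, where 937 of all genes were lower. Against all WT cells the list medians were 0.91, -0.00, -0.04 and -1.32. MUC5AC, a gel-forming mucin of stomach and airway, was at 31.4, 74.2, 47 and 45.9 CPM in CF and at 0, 2.65, 9.47 and 156 CPM in SOX2-low cells. CF held at least 154-fold more at day 2, 28 (23.4 to 33.7) times more at day 5, and 0.294 (0.28 to 0.31) times the SOX2-low level at day 9. WT cluster 17 held 368 CPM of MUC5AC, and without it the difference at day 9 was 0.51.

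MUC4, a membrane mucin, was higher in CF than in SOX2-low cells by 3.50, 3.33, 1.91 and 0.40, and MUC13 was at least 2-fold higher at all 4 days. From SOX2-high cells MUC4 of CF differed by 0.77, -1.70, -2.75 and -3.76. The trefoil peptides TFF1, TFF2 and TFF3 were lower at day 9 by 1.84, 2.26 and 2.39. SPINK1, the trypsin inhibitor of the pancreas, went from 0.889 to 261 CPM in CF and from 0.0681 to 8.44 CPM in SOX2-low cells, and was 346 (135 to 1270) times higher at day 5 and 31 (27.1 to 35.6) times at day 9. Its CF clusters ranged from 0 to 775 CPM, the highest being cluster 19. BPIFB1, a secreted lipid-binding defence protein, was lower in CF by 1.81, 1.70, 3.50 and 4.06. WT cluster 17 held 358 CPM of BPIFB1, and without it the differences were -1.59, -0.92, -1.24 and -1.43, while without WT cluster 33 the day 2 difference was -0.78.

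**Figure D5:**
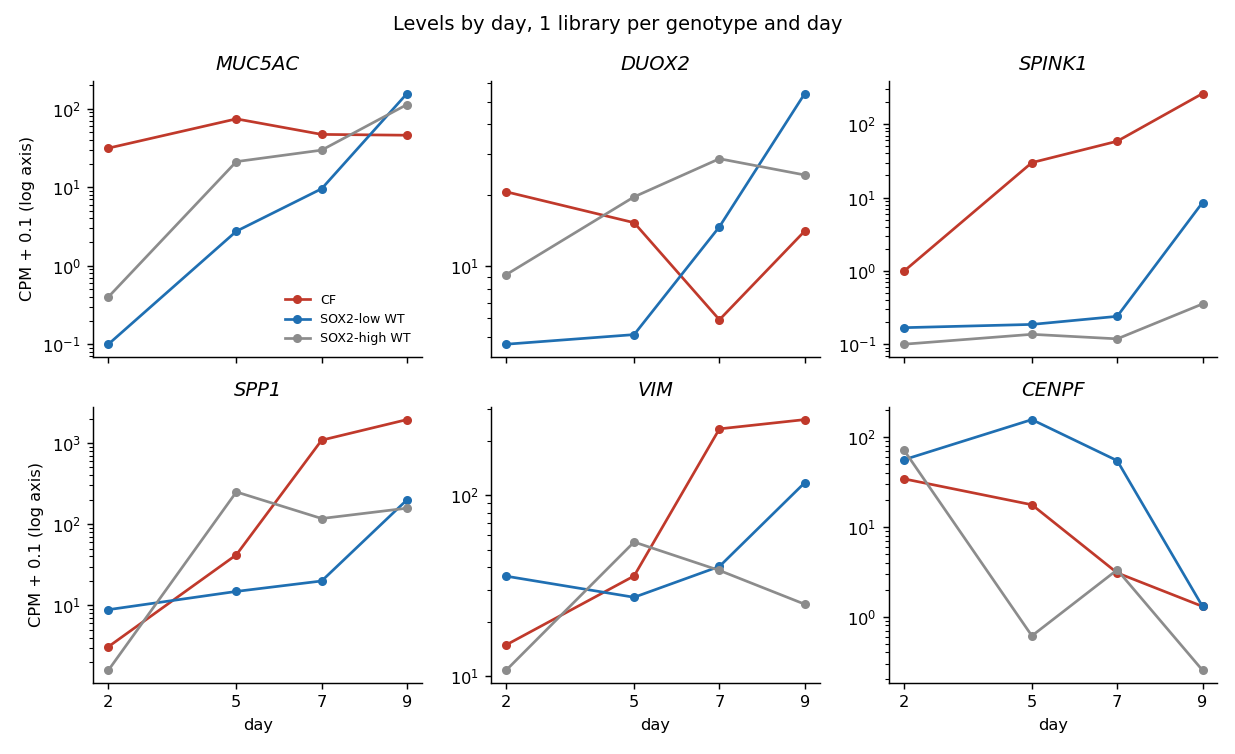
Lines give CPM + 0.1 on a log axis at day 2, 5, 7 and 9 in CF (red), SOX2-low WT (blue) and SOX2-high WT cells (grey), from 1 library for each genotype and day. MUC5AC and DUOX2 of CF start above and end below the SOX2-low line, SPINK1 stays above it, SPP1 and VIM cross it upward, and CENPF meets it at day 9.

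Some immediate early genes were lower in CF. Of 19 tested, 6, 2, 5 and 6 were at least 2-fold lower and none higher, where 1.57%, 2.61%, 2.30% and 1.30% of all genes were lower, with medians of -0.72, -0.46, -0.51 and -0.66. JUN, a subunit of AP-1, was at 405, 573, 522 and 333 CPM in CF and 1720, 1498, 1566 and 1070 CPM in SOX2-low cells, with 557 to 857 CPM in SOX2-high cells. IER3, a stress-induced survival gene, was lower by 1.44, 1.15, 2.11 and 1.56. FOS, the partner of JUN, was within 0.30 of the SOX2-low level at every day, so the AP-1 subunits differed unequally.

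The NF-kB and inflammatory list held differences of both signs, with medians of -0.17, 0.20, 0.06 and -0.43 over 18 genes. CXCL14, an epithelial chemokine, was at 21.3, 5.25, 9.33 and 10.3 CPM in CF against 1.43, 0.108, 0.978 and 1.55 CPM, whereas ICAM1 and CCL20 were lower at the same days, CCL20 by 1.73, 0.87, 2.25 and 1.28. Of 19 interferon-stimulated genes, 5 were at least 2-fold lower at day 2 and 2 at day 9, and 4 were higher at day 5 and 2 at day 7. Of all genes 1.57% and 1.30% were lower at day 2 and 9, and 4.09% and 5.69% higher at day 5 and 7. The medians of these 19 genes were -0.29, 0.46, 0.16 and -0.22. MX2, an antiviral GTPase, was at 25, 45.4, 44.4 and 29.8 CPM in CF and 13.5, 1.42, 4.96 and 28.3 CPM in SOX2-low cells. PSMB9 was higher in CF by 0.92, 2.33, 1.41 and 0.97 on the log2 scale. IFIT3 differed instead by -1.96, 0.40, -0.62 and -1.52 and IFIT2 by -0.83, -0.56, -0.39 and -0.66.

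Of 15 anion and water transport genes of the duct, 1, 0, 1 and 1 were at least 2-fold higher, where 2.18%, 4.09%, 5.69% and 2.16% of all genes were, and 0, 0, 0 and 2 lower, where 1.57%, 2.61%, 2.30% and 1.30% were, with medians of 0.07, 0.22, 0.42 and -0.08. The exception among the 10 sodium channel and pump genes was SCNN1A, the alpha subunit of the epithelial sodium channel, at 112, 97.5, 81.8 and 66.1 CPM in CF and 21.2, 6.98, 13.1 and 40.4 CPM in SOX2-low cells. SOX2-high cells held 68.1, 157, 138 and 283 CPM of SCNN1A. The simple epithelial keratins had medians of -0.44, -0.42, -0.34 and -0.28, with none of 4 at least 2-fold apart at any day. In the ductal class alone 1 and 3 of them were lower at day 2 and 9. In that class 937 of all genes were lower at day 9, in place of 122, and the number at day 2 is not given here. Of 10 basal and squamous epithelium genes, 3, 3, 2 and 2 were at least 2-fold higher and 0, 1, 1 and 1 lower, with medians of 0.12, 0.04, 0.53 and 0.23. KRT4, a keratin of squamous epithelium, was higher by 3.22, 2.20, 0.53 and 0.43, and KRT15, a basal keratin, was lower in CF by 1.74, 2.54 and 1.07 at day 5, 7 and 9.

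WNT pathway genes, which the study examined, had medians of 0.08, 0.40, 0.61 and 0.25 over 15 tested genes. Of these 0, 5, 5 and 2 were at least 2-fold higher, where 2.18%, 4.09%, 5.69% and 2.16% of all genes were, and none lower. In the ductal class alone the medians were -0.00, 0.20, 0.11 and -0.05. There 0, 3, 2 and 0 were higher and 0, 0, 1 and 3 lower, where 678 and 937 of all genes were lower at day 7 and 9. The numbers of all genes higher in that class are not given here. DKK1, a secreted WNT inhibitor and target, was at 28.5, 44.8, 70.4 and 148 CPM in CF and 22.9, 10.9, 21.2 and 36.2 CPM in SOX2-low cells. IRS2, an insulin receptor substrate, was lower by 1.81, 0.91, 1.27 and 1.29. ID1 and ID3, targets of BMP, were lower in CF than in SOX2-low cells at all 4 days, ID3 by 0.73, 0.82, 1.03 and 0.86. They belong to a BMP list of 11 tested genes whose medians were 0.21 to 0.30. Both were higher in CF than in SOX2-high cells, ID3 by 0.77, 1.30, 0.35 and 1.25 and ID1 by 0.89, 2.24, 0.35 and 1.25. From all WT cells ID3 of CF differed by 0.47, -0.04, -0.29 and 0.25.

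Of the 7 tested members of a list of imprinted and X-linked dosage genes, which did not hold SNRPN or SNURF, 1, 1, 1 and 0 were at least 2-fold lower in CF, where 1.57%, 2.61%, 2.30% and 1.30% of all genes were, and GNAS was higher at day 9 by 1.15, with medians of -0.59, -0.22, 0.16 and -0.12. EIF2S3, a translation initiation subunit, was at 67.2, 62.1, 66.1 and 59.6 CPM in CF, at 147, 141, 143 and 102 CPM in SOX2-low and at 93 to 133 CPM in SOX2-high cells. KDM6A, a histone demethylase, was 2.05 (1.81 to 2.31), 1.56 (1.43 to 1.71), 1.75 (1.55 to 1.98) and 2.05 (1.84 to 2.28) times lower than in SOX2-low cells, and on the scale of CPM + 1 it did not reach 2-fold at any day. ZFX, of the same list, differed from SOX2-low cells by -0.78, -0.67, -0.35 and -0.64 on the log2 scale. From SOX2-high cells it differed by -0.93, -0.93, -0.59 and -0.60. DDX3X, an RNA helicase of the same list, was instead higher than in SOX2-low cells by 0.21, 0.65, 0.58 and 0.14.

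The 9 leukocyte markers summed to 108 to 197 CPM in CF and 100 to 213 CPM in SOX2-low cells, with 173 against 100 CPM at day 7, mostly LCP1, an actin-bundling protein that epithelia also express. The 8 endothelial markers summed to at most 0.374 CPM and the 8 ciliated cell markers to at most 2.14 CPM. Of the 6 acinar enzymes in the matrices, CLPS, the lipase cofactor colipase, gave nearly all counts, with sums of 18.4 to 81.4 CPM in CF and 22.9 to 72 CPM in SOX2-low cells. At day 7 these sums were 60.5 CPM in CF and 28.2 CPM in SOX2-low cells, and CLPS was higher by 1.07 on the log2 scale.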

How the data were processed

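Whole counts of UMIs per gene and cell, as deposited by the authors for the 8 libraries, were used; the authors had aligned reads with Cell Ranger 5.0.1 and had filtered and clustered cells in Seurat, WT and CF separately, after removing doublets, so no doublet caller was run. Their deposited cell table gave cluster, class, a count of UMIs and percent of mitochondrial UMIs for 32945 of 44243 barcodes, and for 32868 cells the UMI count lay within 0.1% of the matrix total. Their normalized and lineage tables were not used.

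UMIs were summed by library and side over all cells and scaled to CPM over 27912 genes. Genes with a mean of at least 5 CPM over the 8 sums (9354) were compared as log2 of CPM + 1, and at least 2-fold means 1 on that scale. Depth ran from 34735952 to 102328589 UMIs in CF and from 14686787 to 46392737 in SOX2-low WT sums. Ratios carry exact conditional binomial intervals and a count of 0 was set to 3 counts for bounds; the shares of cells carry exact Clopper-Pearson intervals. Alternatives used edgeR 4.0.16 and DESeq2 1.42.0 for scaling only, and no test was run, because each genotype and day had 1 library and the WT clusters came from the same counts. Scripts ran in Python 3.11.15 (numpy 2.4.6, scipy 1.17.1) and R 4.3.3 and were tested on simulated data.

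Named genes were, among genes 2-fold apart at all 4 days with at least 20 CPM on the higher side, the 15 with a symbol and 5 LOC genes of largest mean difference each way; those 2-fold apart in opposite directions at day 2 and 9; up to 4 of each of 39 lists; a few fixed genes; and the 5 each way whose cluster ranges lay farthest apart. PDX1, SNURF, CLEC12A and the counts of genes absent from a side are given beside these, and other list members only where a count is explained. Members and lists were chosen with earlier results of these data known, and some markers had been picked by the study on these libraries. A few items are not reported here. No sequence is printed, since the tables used here hold none.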

Additional observations from a re-analysis of the deposited data

Results flagged for a closer look

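Genes whose difference between CF and SOX2-low WT cells was at least 2-fold in opposite directions at different days, with both counting intervals excluding 1, are given here. The difference between days was not tested, since each genotype and day had 1 library. Values are log2 differences of CPM + 1, CF minus SOX2-low WT.

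MUC5AC was at 5.02 at day 2 and -1.74 at day 9. DUOX2 and DUOXA2, the oxidase and the maturation factor that make hydrogen peroxide at mucosal surfaces, turned in the same way, DUOX2 from 1.96 at day 2 to -1.88 at day 9 and DUOXA2 from 2.26 at day 2 to -1.59 at day 7. WT cluster 17, with 108 CPM of DUOX2 and 152 CPM of DUOXA2, held 406 of its 603 cells at day 9. Without it, MUC5AC was at 0.51 at day 9 and DUOXA2 at 0.05 at day 7, so neither was lower in CF there, while DUOX2 was at -1.31 at day 9.

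The others turned the opposite way. H1-4, a linker histone, was at -1.52 at day 2 and 1.09 at day 9. VIM, vimentin, was at -1.22 at day 2 and 2.50 at day 7, and SPP1 at -1.29 at day 2 and 5.70 at day 7. CF cluster 11, which held 5968 CPM of SPP1, had 5 cells at day 2 and 128 at day 7. Without it, SPP1 was still at 480 CPM in CF against 19.8 CPM in SOX2-low cells at day 7, and CF cluster 3 held 3863 CPM. In the ductal class alone VIM was at -1.27 and SPP1 at 0.81 at day 7 and H1-4 at -0.29 at day 9, so VIM and H1-4 were not higher in CF there.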

How the results depend on the processing

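Each genotype and day had 1 library, so no replicate error and no test stand behind any value, and counts under about 3 UMIs limit the rarest genes. No paired analysis was possible because no result comes from a test, the WT clusters having been chosen from the same counts. Each value compares CF and WT of the same day. Of 52 named genes 2-fold apart at all 4 days, 37 stayed so under all 28 alternatives, and GUCY1A2, HTRA1, SPARC and IGFBP2 had another direction at a day in the ductal class alone. The other 15 were under 2-fold at a day: HTRA1 under 8 alternatives, IGFBP2 under 6, MAL under 5, SPARC and BPIFB1 under 3, DDIT3 and IER3 under 2, and TFPI, GUCY1A2, COL5A2 and LAMB1 (ductal class alone), MGAT4A and TCF4 (without WT cluster 8), JUN (equal weight for each cluster) and TBX3 (5 CPM added) under 1. The alternatives with no filter and with at least 20 CPM change only which genes are compared, so no log2 difference could move under them. The 26 CF clusters nearest to a SOX2-low WT cluster were 26 under each of 3 alternatives, all of which chose genes by the CF and SOX2-low sums alone. The cause of the other changes given here was not tested. Leaving out WT clusters 11, 27 and 31, or CF cluster 11, was chosen after seeing the data.

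Counts of genes at least 2-fold higher or lower moved by over 1.5 times as follows. TMM scaling gave 325 lower at day 7, and totals without mitochondrial and ribosomal protein genes gave 329 lower at day 7 and 192 at day 9. Adding 5 CPM in place of 1 before taking logs gave 123 higher and 87 lower at day 2 and 80 lower at day 9. With no filter on low genes there were 332, 587, 915 and 422 higher and 262, 454, 359 and 252 lower genes at day 2, 5, 7 and 9, and 132 and 76 at all 4 days, since more genes were compared. With at least 20 CPM on average there were 92, 185, 277 and 88 higher and 64, 81, 88 and 62 lower, and 36 and 19 at all 4 days, since fewer were. The ductal class alone gave 72 lower at all 4 days, 678 at day 7 and 937 at day 9. Equal weight for each cell gave 819 higher at day 7. Equal weight for each cluster gave 819 higher at day 7, 372 higher and 200 lower at day 9 and 155 lower at day 5. A SOX2 limit of 2 CPM gave 374 higher and 374 lower at day 2. Without WT clusters 11, 27 and 31 there were 124 lower at day 5 and 132 at day 7. Leaving out 1 cluster at a time gave 79 to 118 higher and 35 to 43 lower at all 4 days, and at day 9 176 to 543 higher and 115 to 280 lower, both highest without WT cluster 8. The share of WT cells in SOX2-low clusters at day 2, 5, 7 and 9 was 1.94%, 24.5%, 18.9% and 22.9% with a limit of 2 CPM, in place of 14.3%, 33.8%, 27.5% and 27.9%, and 29.1% at day 9 with a limit of 75 CPM.

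In the ductal class alone, these log2 differences of at least 2-fold changed sign. This choice left out CF clusters 3, 11, 23 and 27, named centroacinar, and kept WT cluster 8, named ductal, so like cells were not compared. Genes that changed sign from under 2-fold are not listed here or in the next paragraph. At day 2 and 5 SPARC was at -0.02 at day 2, and TAGLN at -0.69, SPP1 at -0.89, ANKRD1 at -0.10 and PDGFB at -0.25 at day 5. At day 7 GUCY1A2 was at -1.28, HTRA1 at -0.17, VIM at -1.27, CLCA2 at -1.14, COL4A1 at -0.17, COL12A1 at -0.06, TAGLN at -1.87, CALD1 at -0.83, SPARC at -0.29, SMAD7 at -0.30, DLK2 at -0.36, IL18 at -0.14, ITGB1 at -0.11, IGFBP2 at -0.54, PDGFB at -1.0, GAS6 at -0.84 and CLPS at -0.39. At day 9 GUCY1A2 was at -0.50, HTRA1 at -0.61, H1-4 at -0.29, VIM at -3.42, COL4A1 at -0.07, COL12A1 at -1.31, TAGLN at -4.42, CALD1 at -2.12, SPARC at -1.62, SPP1 at -1.11, LAMA3 at -0.88, ANKRD1 at -3.08, DLK2 at -0.36, ITGB5 at -0.81, IGFBP2 at -0.26 and TIMP2 at -1.28. The medians turned to -0.06 and -0.07 for collagens at day 7 and 9, and at day 7 to -1.09 for contractile genes, -0.37 for integrins and -0.39 for acinar enzymes, of which CLPS alone was tested. The contractile median at day 9, under 2-fold at 0.90, became -1.84.

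Without WT clusters 11, 27 and 31, RRM2, UHRF1 and CLSPN were at 1.07, 1.14 and 1.24 at day 5 and 0.09, 0.59 and 0.20 at day 7. CENPF, CCNB1, AURKB and TPX2 were at 2.33, 2.03, 1.1 and 1.74 at day 5 and 0.58, 0.93, 0.05 and 0.69 at day 7, and GINS2 and EZH2 at 0.08 and 0.20 at day 5. The medians turned to 0.45 and 0.17 for S phase and 1.32 and 0.55 for G2/M genes at day 5 and 7. At day 2, where they were -0.26 and -0.67, they became 0.69 and 1.66. With equal weight for each cluster, DUOX2, S100A4 and SOX9 were at -1.07, -0.06 and -0.30 at day 5. Without WT cluster 17, MUC5AC was at 0.51 at day 9 and DUOX2 and DUOXA2 at 0.22 and 0.05 at day 7, and without CF cluster 11 ANKRD1 was at -0.01 at day 9. With WT cells of 0 SOX2 UMIs alone, a choice that takes SOX2 to 0 in WT, SOX2 was at 0.01, 0.12 and 0.03 at day 2, 7 and 9. Of 18704 log2 differences, 64 of at least 2-fold changed sign, 15151 moved by less than their counting error and 3489 moved by more. The 15151 include values that could not move, as under the alternatives with no filter and with at least 20 CPM. Changes of sign from under 2-fold were not counted apart. Where a side had a count of 0 the error was unbounded, so a value there counted as moved by less unless it was among the 64.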
